A study of Mus musculus with 200 samples.

Results

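The 8 embryos described here were F1 hybrids of CAST/EiJ (Cast) mothers and C57BL/6J (B6) fathers (Cast × B6), taken at E11.5 and untreated, and they came from a younger and an older litter. They were chosen by the litter and embryo numbers in their labels, and are 8 of the 16 F1 embryos and of the 184 embryos with values in the tables. Litter 1 held 4 embryos, of which embryos 2, 3 and 4 had 41, 41 and 43 somites and embryo 1 was not counted. Litter 2 held 4 embryos, of which embryos 3, 5 and 6 had 46, 48 and 47 somites and embryo 2 was not counted. B6 is the inbred reference strain and Cast an inbred strain of another mouse subspecies, so that every autosomal gene of these embryos carried a maternal Cast and a paternal B6 copy. RNA of each whole embryo was profiled with 3SEQ, which sequences the 3' ends of polyadenylated transcripts. The other F1 embryos, of B6 mothers and Cast fathers (B6 × Cast), are used for comparison: litter 5 with 5 embryos of 48 to 50 somites, and litter 3 with 3 embryos, 2 of them counted at 58 and 63 somites. Values are given below in the order of embryos 1, 2, 3 and 4 for litter 1 and of embryos 2, 3, 5 and 6 for litter 2.

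Somites are the paired blocks of trunk mesoderm that are added one after another at the tail end, so that their number dates an embryo more finely than its day of gestation. At this stage the liver bud fills with hepatoblasts and blood cells, lens fibers elongate, the first myotubes and cartilage form, neurons leave the cycling neuroepithelium, and the supply of presomitic mesoderm in the tailbud runs down. Red cells of the yolk sac wave carry embryonic globins, and definitive red cells from the liver carry adult beta chains. In a whole embryo, more cells of a type and more RNA per cell cannot be told apart.

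Between 34467708 and 38234229 reads per embryo of litter 1 were counted on genes, and between 15884995 and 26397492 in litter 2. Each embryo was sequenced in 2 runs, but litter 1 on the runs labelled gaIIx and hs1 and litter 2 on hs1 and hs2, which were GAIIx and HiSeq instruments. Litter, mother, stage and sequencing run therefore cannot be told apart here, and no value within a run could be had because the deposited tables hold 1 column per embryo. Xist and Y-linked reads gave 2 male and 2 female embryos in litter 1 and 3 male and 1 female in litter 2. Some libraries stood apart from their littermates. Along the main axis of variation within litters, which took 64.03% of the variance of log2 RPM over 6034 genes, embryo 1 of litter 1 (score 0.431) and embryo 3 of litter 2 (0.309) lay at one end and embryo 3 of litter 1 (-0.363) at the other, with the remaining 5 between -0.168 and -0.00864. The first pair deviated from their littermates together, with r = 0.66 across genes, which are not independent replicates. Mcm2, a subunit of the replicative helicase, shows the spread, at 424, 284, 83.2 and 287 RPM (reads scaled to 1000000 per embryo) in litter 1 and 167, 383, 266 and 169 RPM in litter 2. The counts below are therefore also given without embryo 1 of litter 1 and embryo 3 of litter 2, called the 2 libraries that deviated together. Embryo 3 of litter 1 stood apart as far, with an SD of 0.541 of its log2 deviations from its littermates against 0.615 and 0.483 for those libraries and 0.2001 to 0.353 for the remaining 5. Values without all 3 libraries, which leave 2 embryos of litter 1 and 3 of litter 2, are given where they change a call. Every gene named below as higher or lower passed the test without the 2 libraries, except Phox2a, and without all 3, except Phox2a and Mybpc3. Because each litter is 1 litter of 1 mother, p-values measure the spread between littermates. Placental transcripts were scarce: of 17 placenta and decidua genes, 9 had no read in any of the 8 embryos, Prl3d1, Ctsq and Ctsj among them, and their summed level was 3.97 to 5.59 RPM in litter 1 and 3.23 to 5.34 RPM in litter 2. Cast reads, which the silenced maternal copy, any gene read from both copies and maternal tissue could all give, made up 3.67 to 4.87% of the allele-assigned reads on 26 paternally expressed imprinted genes in litter 1 and 2.21 to 4.43% in litter 2. Of 13 yolk sac endoderm genes 1 was tested, Ctsz, a lysosomal protease of many tissues, which was not called (adjusted p = 0.103) and made up most of their summed level of 170 to 208 RPM in litter 1 and 224 to 243 RPM in litter 2. None of the 3 sex-linked marker genes tested was called by edgeR, 0 of them at an unadjusted p under 0.05.

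The globins, which carry oxygen in red cells, gave the most abundant difference between the litters. Hba-x, the embryonic alpha-like chain, was at 49012.5, 34744, 35092.5 and 34233 RPM in litter 1 and at 17890.2, 18977, 16643 and 13939.7 RPM in litter 2 (log2 difference -1.27 ± 0.17 (SE), adjusted p = 0.00330, edgeR quasi-likelihood test). Hbb-bh1, an embryonic beta-like chain, was at 18322, 13097, 11289 and 12661.5 RPM in the younger embryos and 6109, 4376, 5690.3 and 4803 RPM in the older ones (log2 difference -1.48 ± 0.20 (SE), adjusted p = 0.00329). Neither gene's groups overlapped. Hbb-y, the other embryonic beta-like chain and the most abundant one, was at 65336, 50323, 51843 and 53796 RPM and then 42325, 29976, 36474 and 45695.5 RPM, a log2 difference of -0.59 that did not pass the test (adjusted p = 0.0515), and with library sizes alone in place of TMM normalization it did (adjusted p = 0.0433). Of the adult beta chains, Beta-s was at 528, 467, 554 and 535 RPM in litter 1 and 1557, 1742, 2229 and 2639 RPM in litter 2 (log2 difference 1.91 ± 0.19 (SE), adjusted p = 0.00149). Hbb-b2 was at 366, 270.5, 379.9 and 326 RPM and 697, 1038, 887 and 1156 RPM (log2 difference 1.42 ± 0.18 (SE), adjusted p = 0.00295). Every older embryo was above every younger one in both. Hbb-b1 had the same counts as Hbb-b2 in all embryos and is no separate measurement, and because the adult beta genes are near-identical copies, how their shared reads were split is uncertain. The adult alpha chain genes Hba-a1 and Hba-a2 also had one set of counts, at 141, 201, 162 and 182 RPM in litter 1 and 178, 126, 75.4 and 118 RPM in litter 2, which overlapped and did not pass the test (adjusted p = 0.120). Reads with a close second alignment were discarded before counting, so the level of the adult alpha chains and the lack of a difference are uncertain. The 8 globin entries together took 9.96 to 13.4% of the reads in litter 1 and 5.74 to 6.96% in litter 2.

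**Figure D1:**
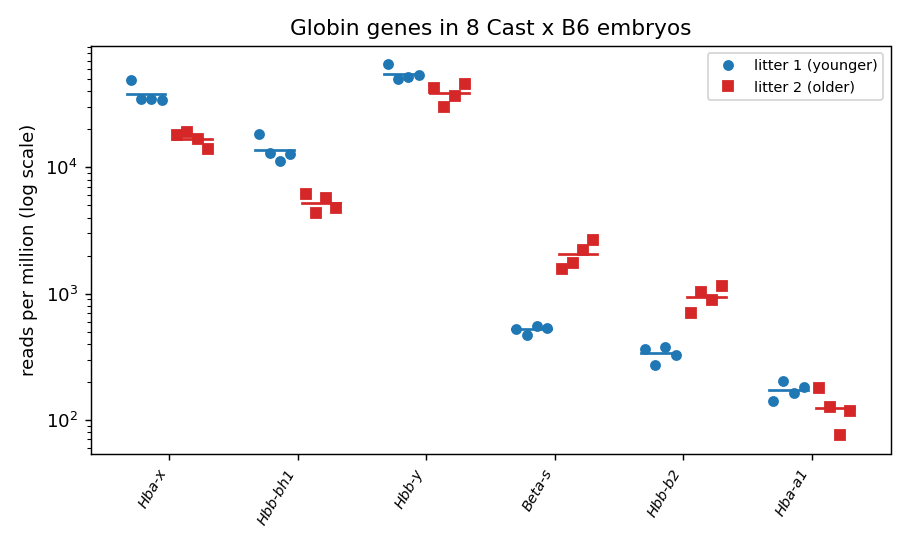
RPM (log scale) of 6 globin genes in each of the 4 embryos of litter 1 (circles) and of litter 2 (squares), with the mean of each litter as a bar. Hba-x and Hbb-bh1 are lower and Beta-s and Hbb-b2 higher in all 4 older embryos, while the litters overlap for Hba-a1.

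The upstream sequences of the embryonic Hba-x and Hbb-y and of the adult Beta-s (Hbb-bs in RefSeq) are shown because Hba-x fell and Beta-s rose, with the most abundant chain, Hbb-y, beside them. Each is the 120 bases before the annotated start in RefSeq (GRCm38.p6), of the B6 reference, 5' to 3', with matches to CACCC, to CCAAT and to ATAAA in capitals.
Hba-x, chr11:32276480-32276599, plus strand: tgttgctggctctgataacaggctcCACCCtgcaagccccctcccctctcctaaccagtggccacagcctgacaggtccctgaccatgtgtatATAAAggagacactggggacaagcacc
Hbb-y, chr7:103853208-103853327, minus strand: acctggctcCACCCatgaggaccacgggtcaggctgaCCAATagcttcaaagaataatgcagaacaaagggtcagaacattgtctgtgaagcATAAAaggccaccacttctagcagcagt
Hbb-bs, chr7:103827929-103828048, minus strand: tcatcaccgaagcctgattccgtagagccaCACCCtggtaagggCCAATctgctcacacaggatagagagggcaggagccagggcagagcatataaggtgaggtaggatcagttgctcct
CACCC is the core of the box bound by KLF1 (EKLF), the erythroid factor, CCAAT a common promoter box and ATAAA a variant of the TATA box, and they were searched on both strands. Each sequence holds 1 CACCC, Hbb-y and Hbb-bs hold 1 CCAAT, and Hba-x and Hbb-y hold 1 ATAAA. Among 32851 promoter windows of the same length, 31.7% hold CACCC, 21.3% CCAAT and 20.2% ATAAA, and 1.01% hold all 3 as Hbb-y does. These matches are descriptions of letters, not of binding.

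As shares of the summed reads of Hbb-y, Hbb-bh1, Hbb-b2 and Beta-s, the beta-like chains shifted as well. Hbb-bh1 went from 19.6 ± 1.78% to 11.3 ± 1.68% (mean ± SD, n = 4 each; exact permutation test, two-sided p = 0.0286, Benjamini-Hochberg adjusted p = 0.0381). Beta-s went from 0.753 ± 0.102% to 4.39 ± 0.882% and Hbb-b2 from 0.483 ± 0.0783% to 2.06 ± 0.585%, both with the same exact p values. All 3 reached the smallest p that 4 against 4 embryos allow, and because the 4 shares sum to 100% they are not independent. Hbb-y went from 79.1 ± 1.61% to 82.2 ± 1.86% (exact permutation p = 0.0857), and made up most of the beta-like reads in both litters. In B6 × Cast litter 5, Hbb-bh1 had a share of 7.56 ± 1.96% (SD, n = 5) and Beta-s one of 4.66 ± 2.07%. In the oldest F1 embryos, B6 × Cast litter 3, they stood at 1.31 ± 0.305% and 30.2 ± 1.87% (SD, n = 3).

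Across genes, 9666 had a mean of at least 5 RPM over the 8 embryos and were tested. In litter 2, 1357 of them were higher (14.0%) and 1057 lower (10.9%) at an adjusted p under 0.05, with a median log2 difference of -0.03 over all genes tested. The changes were mostly moderate: among called genes the median was 0.67 for those higher and -0.59 for those lower, 246 rose and 123 fell by more than 1 on the log2 scale, and 20 rose and 17 fell by more than 2. The balance of directions depended on scaling. With library sizes alone, 1696 genes were higher and 595 lower, and with the globins taken out of the totals 1192 were higher and 1508 lower, and the higher genes were 56.2%, 74.03% and 44.1% of the calls with TMM, library sizes and no globins. Without embryo 1 of litter 1 and embryo 3 of litter 2, 1854 genes were higher and 1688 lower, and 1303 and 1008 of the genes called in the full set were called again. Without all 3 libraries 1906 were higher and 1683 lower, and 1267 and 934 of the genes called in the full set were called again. The litters did not overlap in RPM for 1344 of the higher and 666 of the lower genes. Over all genes tested they did not overlap for 28.9%, with litter 2 above litter 1 in 2071 genes and below in 724. RPM uses library sizes alone while the calls use TMM, so overlap and calls are on different scales and the 2 directions are not comparable. Single libraries also moved the counts by over 1.5 times. Leaving out embryo 2 of litter 1 gave 711 higher and 507 lower, embryo 4 of litter 1 gave 756 and 500, embryo 5 of litter 2 gave 764 and 439, embryo 6 of litter 2 gave 798 and 583, and embryo 3 of litter 2 gave 1469 and 1691. Without embryo 3 of litter 1 there were 1211 and 874. With sex as a covariate, 865 genes were higher and 637 lower.

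The gene with the smallest p was Dkk2, a secreted regulator of Wnt signaling, on chromosome 3 from 131748256 to 131843257 of mm9. It was at 12.9, 14.2, 14.2 and 13.6 RPM in litter 1 and 46.0, 47.0, 42.5 and 46.1 RPM in litter 2 (log2 difference 1.65 ± 0.09 (SE), adjusted p = 3.97e-04). The spread within each litter was small against the gap. Apoa1, the main protein of HDL particles, was at 51.6, 62.9, 66.1 and 66.1 RPM and 241, 184, 233 and 254 RPM (log2 difference 1.82 ± 0.14 (SE), adjusted p = 9.79e-04). Ly6h, a GPI-anchored protein of the brain, rose from between 23.7 and 25.7 RPM in litter 1 to between 87.6 and 126 RPM in litter 2. Eef1a2, the elongation factor isoform of neurons and muscle, rose from between 2.81 and 3.89 RPM in litter 1 to between 12.2 and 13.5 RPM in litter 2. Fdps, an enzyme of the isoprenoid and cholesterol pathway, rose from between 7.69 and 12.2 RPM in litter 1 to between 41.8 and 67.9 RPM in litter 2 (log2 difference 2.33 ± 0.21 (SE), adjusted p = 0.00149). Apoc2, which activates lipoprotein lipase, C1qtnf4, a secreted C1q-like protein, and Matr3, a nuclear matrix protein, had log2 differences of 1.98, 1.12 and 1.28. Agap2 and Kng1, at 7.90 to 9.65 and 6.92 to 8.24 RPM in litter 2 and 1.70 to 2.06 and 2.08 to 2.77 RPM in litter 1, fell under the RPM minimum when any one library of litter 2 was left out, and so were not tested there.

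Among the genes lower in litter 2, Snrpe, a core protein of the spliceosome, had the smallest p, at 63.8, 48.6, 48.5 and 73.5 RPM in litter 1 and 10.5, 14.6, 11.3 and 11.4 RPM in litter 2 (log2 difference -2.37 ± 0.17 (SE), adjusted p = 9.79e-04). Igdcc3, an immunoglobulin superfamily receptor, was at 486, 529.7, 614 and 427 RPM and 189, 222, 194 and 159.7 RPM (log2 difference -1.51 ± 0.13 (SE), adjusted p = 0.00149). Lin28a, the RNA-binding protein that blocks let-7 maturation in immature cells, was at 22.8, 27.2, 32.8 and 22.9 RPM and 7.30, 8.26, 5.32 and 4.54 RPM (log2 difference -2.14 ± 0.21 (SE), adjusted p = 0.00149). The litters did not overlap in any of these. Fgf8, a signal of the limb ridge, tailbud and midbrain border, fell from between 20.8 and 24.98 RPM in litter 1 to between 10.4 and 11.0 RPM in litter 2. Six3, a forebrain and eye factor, fell from between 27.9 and 33.5 RPM in litter 1 to between 14.0 and 16.0 RPM in litter 2. Car14, a membrane carbonic anhydrase, and Akap2, an anchor for protein kinase A, had log2 differences of -1.04 and -1.017. Znrd1, a subunit of RNA polymerase I, and 2810004N23Rik had log2 differences of -0.89 and -0.89. Hoxd11, a posterior patterning gene, fell from between 7.47 and 11.0 RPM in litter 1 to between 1.57 and 2.77 RPM in litter 2, and without embryo 4 of litter 1 its mean was under the RPM minimum and it was not tested.

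**Figure D2:**
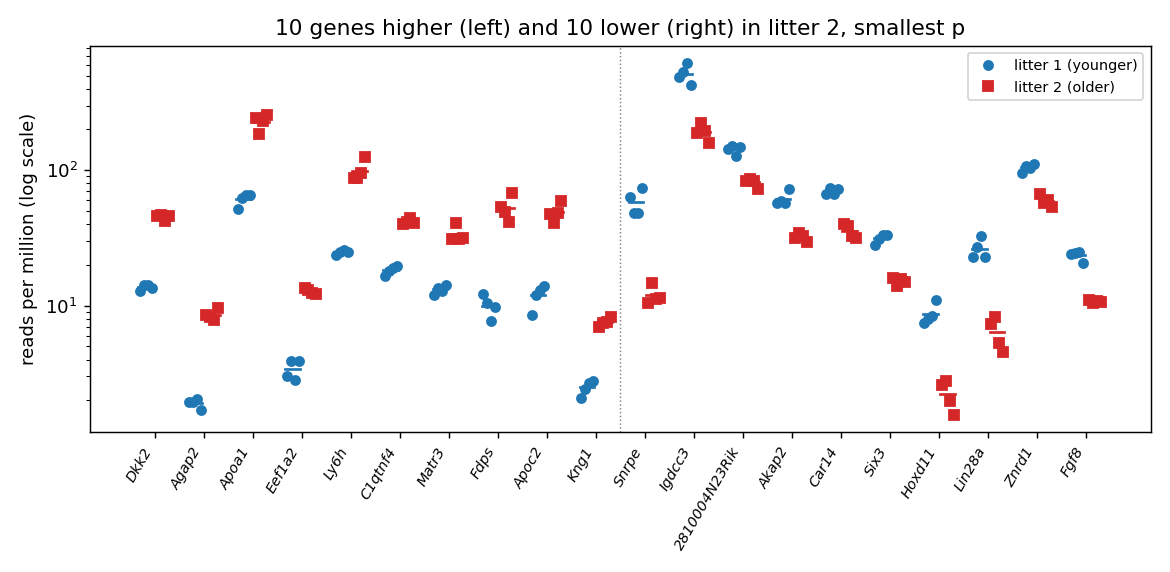
RPM (log scale) in each embryo of litter 1 (circles) and litter 2 (squares) for the 10 genes with the smallest p among those higher and the 10 among those lower in litter 2, with litter means as bars. The litters do not overlap for any of the 20 genes, which were picked by p, from Agap2 at 1.70 to 2.06 RPM in litter 1 to Igdcc3 at 427 to 614 RPM. Over all genes tested they do not overlap for 28.9%.

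Plasma proteins of the fetal liver moved together. Of 29 listed liver genes 20 were tested, 15 were higher in litter 2 and 0 lower by edgeR's test (75% and 0%, against 14.0% and 10.9% of all genes), 17 and 0 at an unadjusted p under 0.05, with a median log2 difference of 0.79 against -0.03 over all genes. The median was 0.89 with library sizes alone and 0.72 without globins in the totals, and 16 were higher without the 2 libraries that deviated together. Their summed level was 985 to 1306 RPM in litter 1 and 2229 to 2471 RPM in litter 2. Apoa1 and Apoc2 were described above. Trf, the plasma iron carrier transferrin, was at 89.1, 122, 138 and 139 RPM in litter 1 and 324, 300.0, 287 and 316 RPM in litter 2 (log2 difference 1.26 ± 0.13 (SE), adjusted p = 0.00167). Ambp, the precursor of alpha-1-microglobulin and bikunin, was at 60.7, 58.6, 63.9 and 65.7 RPM and 145, 127, 137 and 165 RPM (log2 difference 1.14 ± 0.11 (SE), adjusted p = 0.00149). The groups were apart in both. Afp, the fetal counterpart of albumin, was at 228 to 358 RPM and 453 to 536 RPM, and Alb, albumin itself, at 22.8 to 49.8 RPM and 81.8 to 149 RPM. Hnf4a, a master regulator of hepatocytes, was at 5.27 to 7.60 and 9.05 to 14.0 RPM, and the call was lost without any one of embryos 2 and 4 of litter 1 or any one of embryos 2 and 6 of litter 2 (adjusted p up to 0.0647, edgeR).

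Red cell genes other than globins differed in both directions. Of 24 tested, 7 were higher and 3 lower (29.2% and 12.5%, against 14.0% and 10.9% of all genes), with a median log2 difference of 0.01 that turned to -0.06 without globins in the totals, and without the 2 libraries there were 8 higher and 3 lower. Gfi1b, a repressor needed for red cell maturation, was at 6.92, 8.47, 10.1 and 9.28 RPM in litter 1 and 20.9, 15.0, 15.9 and 17.1 RPM in litter 2 (log2 difference 0.92 ± 0.16 (SE), adjusted p = 0.00683). Urod, an enzyme of heme synthesis, was lower, at 239.6, 232, 239.6 and 232 RPM and 195, 205, 187 and 178 RPM (log2 difference -0.38 ± 0.07 (SE), adjusted p = 0.00724). Tfrc, the transferrin receptor, was at 2.43 to 2.90 and 5.15 to 12.2 RPM, and its mean fell under the RPM minimum without embryo 5 or embryo 6 of litter 2, so that it was not tested there. Klf1, the erythroid CACCC-binding factor, was at 47.5, 43.5, 47.8 and 50.9 RPM and 78.1, 63.7, 73.3 and 92.8 RPM (log2 difference 0.63 ± 0.14 (SE), adjusted p = 0.0156), and the call was lost without embryo 2 of litter 1 (adjusted p up to 0.0538, edgeR).

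Among lens, muscle and cartilage genes more were called higher than lower in the older litter, but 13 of the 25 muscle genes and 6 of the 10 cartilage genes tested were not called. The shares higher and lower were 66.7% and 16.7% for lens, 40% and 8% for muscle and 40% and 0% for cartilage genes. Over all genes tested they were 14.0% and 10.9%. Of 25 lens genes only 6 passed the RPM minimum, of which 4 were higher and 1 lower, as without the 2 libraries. Cryba1, a beta-crystallin of lens fibers, was at 1.65, 2.94, 2.64 and 3.56 RPM in litter 1 and 9.82, 9.89, 9.87 and 14.7 RPM in litter 2 (log2 difference 1.98 ± 0.25 (SE), adjusted p = 0.00280). Cryaa, alpha-A-crystallin, was at 4.604, 4.47, 4.82 and 8.03 RPM and 19.9, 12.7, 12.7 and 12.0 RPM (log2 difference 1.32 ± 0.24 (SE), adjusted p = 0.00744). Crybb3, another beta-crystallin, and Pitx3, a lens factor, had log2 differences of 1.36 and 1.26. The exception was Cryab, a small heat shock protein that is also made in heart and muscle, at 42.7 to 58.3 RPM and 30.2 to 41.0 RPM, and the call was lost without any one of embryos 2, 3 and 4 of litter 1 or embryo 5 of litter 2 (adjusted p up to 0.0683, edgeR). Of 25 skeletal muscle genes tested, 10 were higher and 2 lower (median log2 difference 0.31), and without the 2 libraries there were 12 higher and 3 lower. Tnnt1, slow troponin T, was at 82.9, 114, 128 and 124 RPM and 322, 260.4, 314 and 326 RPM (log2 difference 1.38 ± 0.14 (SE), adjusted p = 0.00168). Chrng, the fetal subunit of the acetylcholine receptor, rose from between 2.75 and 4.64 RPM in litter 1 to between 9.24 and 10.3 RPM in litter 2. Myog, the factor that starts myotube formation, rose from between 25.1 and 50.5 RPM in litter 1 to between 57.2 and 89.5 RPM in litter 2, but the call was lost without any one of embryos 1, 2 and 4 of litter 1 or any one of embryos 2, 5 and 6 of litter 2 (adjusted p up to 0.115, edgeR). Actc1, the cardiac actin that embryonic muscle also makes, went the other way, at 401, 385, 379 and 406 RPM and 261, 248, 232 and 183 RPM (log2 difference -0.84 ± 0.10 (SE), adjusted p = 0.00235), as did Pax3, a factor of muscle precursors and dorsal neural tube, with a log2 difference of -0.66. Of 10 cartilage genes tested 4 were higher and 0 lower by edgeR, 4 and 0 at an unadjusted p under 0.05, and 3 and 0 without the 2 libraries, with a median log2 difference of 0.08. Mia1, a secreted protein of chondrocytes, was at 2.18 to 2.57 RPM and 6.17 to 10.9 RPM and Pth1r, the receptor for PTH and PTHrP, at 183 to 209 and 271 to 374 RPM, with log2 differences of 1.75 and 0.63. Mia1 was under the RPM minimum without embryo 5 or embryo 6 of litter 2. The main cartilage collagen Col2a1 did not pass the test, at 535 to 787 RPM and 606 to 672 RPM (adjusted p = 0.614).

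All heart and neural progenitor genes called with all libraries were lower in the older litter, while over all genes tested 14.0% were higher and 10.9% lower. Of 15 heart genes tested 0 were higher and 3 lower (0% and 20%) by edgeR, 0 and 5 at an unadjusted p under 0.05, 2 were lower with library sizes alone, and 4 were lower without the 2 libraries. Without all 3 libraries 2 were higher and 2 lower, and 0 of the 3 called genes were called again by edgeR. Mybpc3, the cardiac myosin-binding protein, was at 35.3, 31.04, 41.1 and 30.5 RPM in litter 1 and 19.1 to 26.4 RPM in litter 2 (log2 difference -0.65 ± 0.15 (SE), adjusted p = 0.0174), and did not pass without all 3 libraries (adjusted p = 0.0558). Of 22 neural progenitor genes tested 0 were higher and 5 lower (0% and 22.7%) by edgeR, 1 and 7 at an unadjusted p under 0.05, 1 higher and 2 lower with library sizes alone, 2 higher and 9 lower without the 2 libraries, and 2 higher and 6 lower without all 3. Nes, the intermediate filament nestin of dividing neuroepithelium, was at 366, 424, 520.5 and 424 RPM and 251, 262, 295 and 239 RPM (log2 difference -0.80 ± 0.11 (SE), adjusted p = 0.00379), with no overlap. Sox3 and Notch1, which keep progenitors dividing, overlapped between litters, at 47.1 to 91.3 and 33.1 to 50.7 RPM and at 45.8 to 87.2 and 34.95 to 51.8 RPM. For Sox3 the call was lost without any one of embryos 2 and 4 of litter 1 or any one of embryos 5 and 6 of litter 2 (adjusted p up to 0.0659, edgeR), and for Notch1 the call was lost without any one of embryos 2 and 4 of litter 1 or any one of embryos 2, 5 and 6 of litter 2 (adjusted p up to 0.0708, edgeR). Sox2 was not called (adjusted p = 0.406). Of 34 neuronal genes tested 6 were higher and 4 lower, 8 higher and 6 lower without the 2 libraries, and their shares of 17.6% and 11.8% were near those over all genes tested (14.0% and 10.9%). Prph, the intermediate filament of peripheral neurons, rose from between 23.2 and 34.7 RPM in litter 1 to between 55.3 and 71.7 RPM in litter 2 (log2 difference 1.00 ± 0.15 (SE), adjusted p = 0.00423). Stmn4, a tubulin-binding protein of neurons, rose from between 56.2 and 80.4 RPM in litter 1 to between 119.6 and 173 RPM in litter 2. Th, the tyrosine hydroxylase of catecholamine neurons, fell from between 15.2 and 18.0 RPM in litter 1 to between 7.93 and 13.6 RPM in litter 2, though the call was lost without embryo 2 of litter 1 or embryo 5 of litter 2 (adjusted p up to 0.0626, edgeR). Phox2a, a factor of autonomic neurons, was at 14.1 to 17.3 and 10.6 to 13.9 RPM (log2 difference -0.48 ± 0.15 (SE), adjusted p = 0.0443), but did not pass without the 2 libraries (adjusted p = 0.0651) or without most single ones.

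In the tailbud and segmentation list, 11 of 30 genes were tested, 1 was higher and 5 were lower (9.09% and 45.5%, against 14.0% and 10.9% of all genes), with a median log2 difference of -0.60, -0.49 with library sizes alone, and 1 higher and 7 lower without the 2 libraries. Besides Lin28a and Fgf8, Dll3, a Notch ligand of the presomitic mesoderm, was at 32.95, 39.5, 38.9 and 40.9 RPM and 23.2, 25.99, 21.2 and 15.2 RPM (log2 difference -0.91 ± 0.15 (SE), adjusted p = 0.00516). Uncx, which marks the caudal part of each somite, was the one higher, at 10.8, 12.7, 14.9 and 11.7 RPM and 26.6, 22.8, 21.7 and 29.2 RPM (log2 difference 0.93 ± 0.16 (SE), adjusted p = 0.00615). T (brachyury), the defining tailbud factor, was under the RPM minimum at 0.376 to 1.14 RPM and 0.315 to 0.758 RPM. Of 7 posterior Hox genes tested, Hoxd11 was lower and Hoxa10 higher (log2 difference 0.99 ± 0.24 (SE), adjusted p = 0.0211), though for Hoxa10 the call was lost without embryo 2 of litter 1 or embryo 6 of litter 2 (adjusted p up to 0.0592, edgeR). Hoxd12 and Hoxd13, next to Hoxd11, did not pass (adjusted p = 0.205 and 0.303). Of 17 limb bud genes tested 3 were higher and 2 lower, shares near those over all genes (17.6% and 11.8%). Pitx1, the hindlimb factor, rose from between 79.7 and 100.98 RPM in litter 1 to between 119 and 154 RPM in litter 2.

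**Figure D3:**
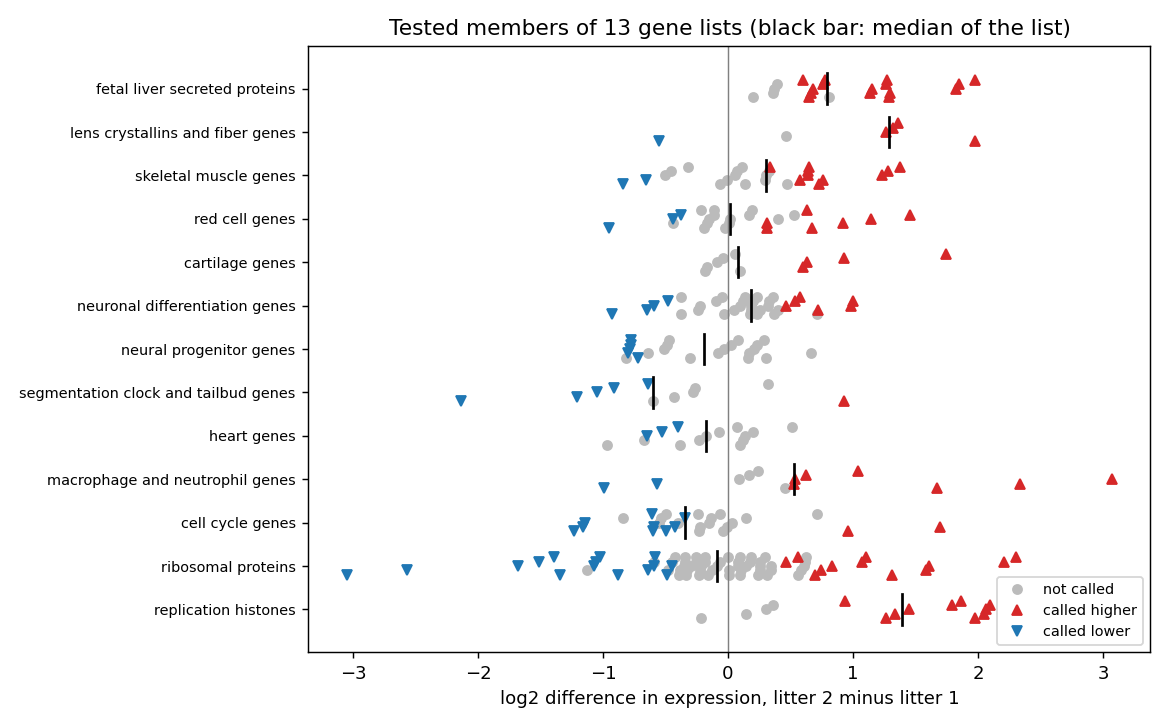
Log2 difference in expression, litter 2 minus litter 1, of each tested member of 13 gene lists, with called genes as triangles (up for higher, down for lower), other genes as grey circles and the median of each list as a black bar. Fetal liver genes and replication histones lie almost entirely to the right with medians of 0.79 and 1.39, tailbud genes mostly to the left with a median of -0.60, and ribosomal protein genes spread widely on both sides.

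Among genes of basic cell functions, replication histones, whose messenger RNA mostly lacks a poly(A) tail, had 10 of 14 tested members higher and 0 lower by edgeR (71.4% and 0%, against 14.0% and 10.9% of all genes), 11 and 0 at an unadjusted p under 0.05 and 10 and 0 without the 2 libraries, with a median log2 difference of 1.39. Their summed level was 159.7 to 202 RPM in litter 1 and 390.0 to 515 RPM in litter 2. Hist1h2ai was at 5.53, 4.26, 3.39 and 3.92 RPM and 16.2, 17.9, 17.5 and 23.9 RPM (log2 difference 2.07 ± 0.22 (SE), adjusted p = 0.00183), and Hist3h2ba at 20.7, 28.5, 30.2 and 26.4 RPM and 108, 76.3, 112 and 159 RPM (log2 difference 2.05 ± 0.24 (SE), adjusted p = 0.00221). Histone genes are near-identical in their coding parts, so reads may be shared among them. Of 75 tested genes with an Rpl or Rps symbol, which include the S6 kinase genes, 12 were higher and 15 lower (16% and 20%, against 14.0% and 10.9% of all genes), 17 and 17 without the 2 libraries, with a median log2 difference of -0.09 that turned to 0.04 without them. Rpl41, the smallest ribosomal protein, was at 91.4, 106, 116 and 111 RPM and 27.6, 12.5, 23.9 and 11.4 RPM (log2 difference -2.56 ± 0.29 (SE), adjusted p = 0.00221), while Rpl18 was at 15.3, 16.7, 12.4 and 14.1 RPM and 37.4, 46.9, 41.4 and 59.001 RPM (log2 difference 1.59 ± 0.18 (SE), adjusted p = 0.00221). Rps20 was at 385, 181, 158 and 348 RPM and 49.1, 44.9, 24.8 and 18.9 RPM, with a large spread within litter 1. Many ribosomal protein genes have processed copies elsewhere in the genome, and reads with a close second alignment were discarded before counting, so their levels are uncertain. Of 27 cell cycle genes tested 2 were higher and 9 lower (2 higher and 11 lower without the 2 libraries and 2 higher and 14 lower without all 3), while Ccnb1, a mitotic cyclin, Mcm2 and Mki67 were not called, and Ccnb1 ranged from 25.2 to 212 RPM within litter 1. The shares of cell cycle genes higher and lower were 7.41% and 33.3%, against 14.0% and 10.9% of all genes. Rfc3, a subunit of the clamp loader, was at 182, 165, 161 and 169.6 RPM and 128, 125, 107 and 108 RPM (log2 difference -0.61 ± 0.09 (SE), adjusted p = 0.00423), and Ccne2, a cyclin of the entry into S phase, at 15.3, 10.7, 7.25 and 9.55 RPM and 25.6, 23.7, 50.0 and 46.6 RPM (log2 difference 1.70 ± 0.34 (SE), adjusted p = 0.0104). Of 18 glycolysis and hypoxia genes tested 2 were higher and 4 lower (11.1% and 22.2%). Tpi1, triose phosphate isomerase, rose from between 27.6 and 77.1 RPM in litter 1 to between 123 and 171 RPM in litter 2 while Slc2a1, the glucose transporter GLUT1, fell with overlap from between 140.3 and 181 RPM in litter 1 to between 112 and 141 RPM in litter 2.

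Markers of white blood cells and vessels differed in both directions. Of 13 macrophage and neutrophil genes tested 7 were higher and 2 lower (53.8% and 15.4%, against 14.0% and 10.9% of all genes), also without the 2 libraries. The lower ones were Fcer1g and C1qc, and 4 were not called. S100a8, a calcium-binding protein of granulocytes, was at 12.8, 45.4, 66.3 and 32.5 RPM in litter 1 and 232, 143, 187 and 262 RPM in litter 2 (log2 difference 2.34 ± 0.45 (SE), adjusted p = 0.00901), and Ngp, a granule protein, at 0.116 to 3.13 RPM and 9.79 to 15.1 RPM (log2 difference 3.07 ± 0.67 (SE), adjusted p = 0.0140). Prtn3, a granule protease of neutrophil precursors, rose from between 21.1 and 40.3 RPM in litter 1 to between 60.5 and 68.4 RPM in litter 2. The 3 chains of complement C1q, which macrophages make together, differed in direction: C1qb was higher (log2 difference 0.53 ± 0.11 (SE), adjusted p = 0.0133) and C1qa also (log2 difference 0.53 ± 0.15 (SE), adjusted p = 0.0352), while C1qc was lower (log2 difference -0.57 ± 0.15 (SE), adjusted p = 0.0292). For C1qa the call was lost without any one of embryos 2 and 4 of litter 1 or any one of embryos 2, 5 and 6 of litter 2 (adjusted p up to 0.0887, edgeR), and for C1qc, whose litters overlapped, the call was lost without any one of embryos 2, 3 and 4 of litter 1 or any one of embryos 2, 5 and 6 of litter 2 (adjusted p up to 0.0921, edgeR). Of 16 endothelial genes tested 2 were higher and 2 lower (12.5% and 12.5%), shares close to the 14.0% and 10.9% of all genes. Pecam1, the junction protein CD31, was at 62.2, 60.9, 62.4 and 59.2 RPM and 104, 102, 108 and 109.9 RPM (log2 difference 0.72 ± 0.09 (SE), adjusted p = 0.00235), and Esam, another endothelial junction protein, at 24.2, 25.8, 27.8 and 28.2 RPM and 15.5, 13.3, 14.7 and 11.0 RPM (log2 difference -1.03 ± 0.13 (SE), adjusted p = 0.00238). Both had no overlap between litters. Of 8 heat shock genes tested 0 were higher by edgeR, 1 at an unadjusted p under 0.05, and 1, Hspe1, the mitochondrial chaperonin HSP10, was lower, from between 8.33 and 19.8 RPM in litter 1 to between 1.72 and 3.07 RPM in litter 2. Of 9 immediate early genes, which respond quickly to stimulation and handling, 1 was higher (Ier3, log2 difference 1.10) and 0 were lower by edgeR, 1 at an unadjusted p under 0.05. Of the 4 pigment cell genes tested 1 was higher, Slc24a5, a transporter of melanosomes, at 2.52 to 4.29 and 6.42 to 8.45 RPM, which was under the RPM minimum without embryo 6 of litter 2.

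The B6 × Cast litters, which share no embryo with those above and were both sequenced on the runs of litter 1, gave a second comparison of an older with a younger litter. Litter 3 minus litter 5 was tested on the same 9666 genes, and 1189 were higher (12.3%) and 1133 lower (11.7%) in the older litter. Of the 1357 genes higher in Cast × B6 litter 2, 718 (52.9%) had a positive difference there, against 52.2% of all genes tested, and of the 1057 lower, 591 (55.9%) had a negative one, against 47.8%. The shares were thus close to the background for genes called higher. Of the liver list, all 15 called genes were also called higher in B6 × Cast litter 3. Of the 10 muscle genes called higher 9 were called higher there too, and 4 of the 5 tailbud genes called lower were called lower. Other lists carried over in part or not at all. Of the 7 macrophage and neutrophil genes called higher, 4 had a positive difference in B6 × Cast and 0 were called higher there by edgeR. All 3 limb bud genes called higher had a negative difference there, and the 2 called lower also had a negative one, with 0 called by edgeR. All 3 red cell genes called lower had a positive difference. All 7 red cell genes called higher had a positive one too, and 4 of them were called. The 4 lens genes called higher had a positive difference and 3 were called, and the 3 heart genes called lower a negative one and 2 were called. Of the 9 cell cycle genes called lower 4 had a negative difference there and 1 was called, and of the 4 neuronal genes called lower 1 was. Of the ribosomal protein list, 3 of the 12 genes called higher and 2 of the 15 called lower were called in the same direction. Of the 5 neural progenitor genes called lower all had a negative difference there and 3 were called. Lin28a had a log2 difference of -1.61 ± 0.17 (SE) there, Apoc2 one of 0.95 ± 0.18 and Hbb-bh1 one of -3.04 ± 0.25. Of the 10 histone genes called higher, 0 had a positive difference in the other cross. Snrpe, Rpl41 and Rps20, among the genes that fell furthest, had differences of 0.38, 0.15 and -0.26 there, none of which passed the test (adjusted p = 0.617, 0.845 and 0.872). Actc1 was called in opposite directions in the crosses (-0.84 and 0.63). The stage steps differ in size between the crosses, as do the mothers, so the values are given side by side.

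**Figure D4:**
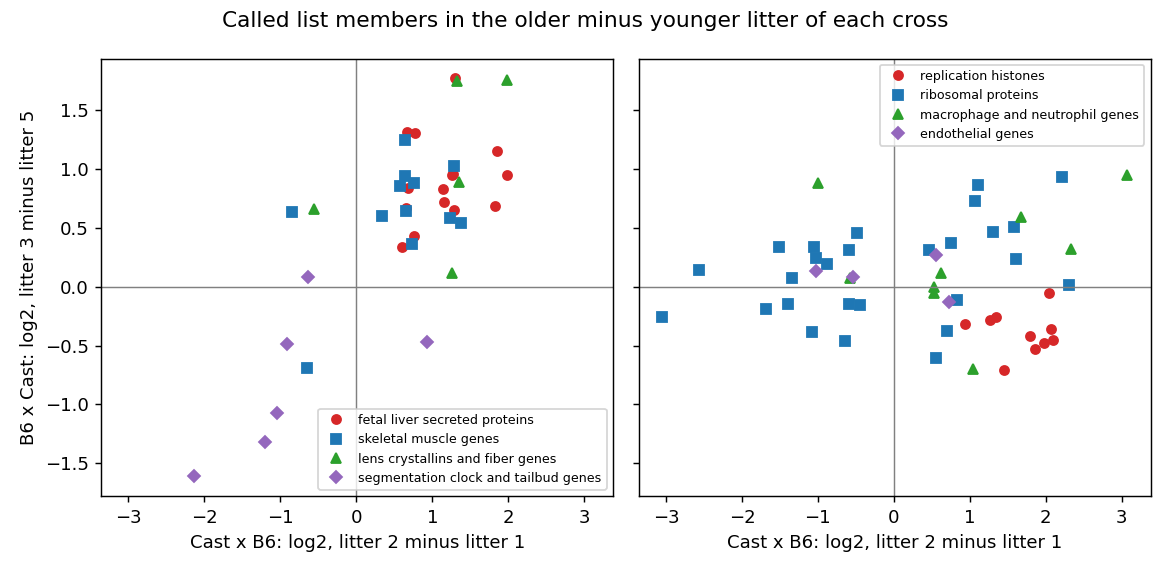
Log2 difference of the older minus the younger litter in Cast × B6 (x axis, litter 2 minus litter 1) and in B6 × Cast (y axis, litter 3 minus litter 5) for members of 8 gene lists called in Cast × B6. On the left, all 15 liver genes and 10 muscle genes called higher lie above 0 on both axes; on the right, all 10 histone genes lie above 0 on the x axis and below 0 on the y axis.

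In 153 N2 backcross embryos with a counted stage of 42 to 57 somites, 1038 of the genes called higher (76.5%) had a positive rank correlation with somite number after the lane means were removed, against 59.5% of all genes tested. Of the genes called lower, 606 (57.3%) had a negative one, against 40.5% of all. Without removing lane means the shares were 70.2% against 41.3% and 66.7% against 58.7%. All 15 liver genes, 10 muscle genes and 5 tailbud genes called above had the same sign in the N2 embryos, whereas 6 of the 10 histone genes did. Over these 3 sets, 224 genes were higher and 147 lower in the older litter of both crosses by edgeR's test and had the same sign in the N2 embryos. Of the genes called higher, 250 were called higher in B6 × Cast litter 3 and 114 were called lower there. Of those called lower, 172 were called lower there and 60 higher. Over all genes tested, 12.3% were called higher and 11.7% lower there. The mean log2 level of B6 × Cast litter 5, which at 48 to 50 somites was somewhat older than litter 2 and shared the sequencing runs of litter 1, lay nearer to litter 2 than to litter 1 for 1067 of the 1357 genes higher (78.6%) and 873 of the 1057 lower (82.6%), against 66.7% of all genes tested. Snrpe and Apoa1 were among those nearer to litter 2 and Fdps and Rpl18 among those nearer to litter 1.

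The B6 allele fraction (BAF) is the part of a gene's allele-assigned reads that carry the B6 base at the SNPs they cover, each read giving at most 1 vote. It compares both copies within an embryo, so that a change in the number of cells that make a transcript moves it only if those cells differ in their BAF. Of 6010 autosomal genes with at least 20 votes in each embryo, 57 had a higher BAF in litter 2 (0.948%) and 47 a lower one (0.782%) at an adjusted p under 0.1 (edgeR test of the allele by litter interaction). The median difference over all genes was -0.000320, and over called genes the median absolute difference was 0.108, with 9 genes past 0.2. The litters did not overlap for any of the 57 and 47 called genes, and for 7.62% of all genes tested. Without embryo 1 of litter 1 and embryo 3 of litter 2, 86 were higher and 88 lower, and 49 and 37 of the called genes were called again. Leaving out embryo 2 of litter 1 gave 20 and 29, embryo 3 of litter 1 gave 35 and 41, and embryo 4 of litter 1 gave 18 and 23. Of the 104 called genes, 33 (31.7%) were also called in expression, against 24.8% of those tested.

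Beta-s had the smallest p among genes with a higher BAF. Its BAF was 0.136, 0.169, 0.164 and 0.180 in litter 1 and 0.295, 0.294, 0.298 and 0.312 in litter 2 (log2 odds ratio 1.15 ± 0.09 (SE), adjusted p = 3.60e-04; 7428 to 18609 votes per embryo). The litters were apart, and the gene's total rose as well. It was 0.359 ± 0.0458 (SD, n = 5) in B6 × Cast litter 5 and 0.468 ± 0.00933 (SD, n = 3) in the still older litter 3. Hbb-y was not called, at 0.505, 0.502, 0.495 and 0.497 and 0.491, 0.503, 0.514 and 0.497 with at least 186040 votes (log2 odds ratio 0.01 ± 0.03, SE). Hbb-bh1, at 0.566, 0.592, 0.585 and 0.592 and 0.673, 0.782, 0.668 and 0.580, did not pass (adjusted p = 0.158) on as few as 81 votes, but did without the 2 libraries that deviated together (adjusted p = 0.0520). Since B6 and Cast carry different arrangements of near-identical adult beta genes, an assignment of reads to alleles there is less certain than elsewhere.

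Among other genes with a higher B6 share in litter 2, Ptov1, a protein first described in prostate tumors, on chromosome 7 from 52118438 to 52125158 of mm9, was at 0.600, 0.589, 0.584 and 0.586 in litter 1 and 0.670, 0.706, 0.680 and 0.686 in litter 2 (log2 odds ratio 0.60 ± 0.06 (SE), adjusted p = 0.00155). Eif3b, a subunit of translation initiation factor 3, on chromosome 5 from 140895259 to 140919314, was at 0.543, 0.582, 0.526 and 0.557 and 0.739, 0.687, 0.723 and 0.719 (log2 odds ratio 1.03 ± 0.11 (SE), adjusted p = 0.00239). Tubb3, the neuronal beta-tubulin, on chromosome 8 from 125935324 to 125945915, was at 0.319, 0.312, 0.354 and 0.293 and 0.469, 0.544, 0.503 and 0.454 (log2 odds ratio 1.06 ± 0.14 (SE), adjusted p = 0.00885). Its total level was lower in litter 2 with overlap (log2 difference -0.59 ± 0.19 (SE), adjusted p = 0.0480), and the call was lost without any one of embryos 2, 3 and 4 of litter 1 or any one of embryos 2, 3, 5 and 6 of litter 2 (adjusted p up to 0.127, edgeR). In B6 × Cast litter 5 Tubb3 stood at 0.430 ± 0.0426 (SD, n = 5), between the litters. Its BAF pooled over heterozygous N2 embryos was 0.344, nearer to the mean of litter 1. Lbh, a transcriptional cofactor of limb and heart, was at 0.366, 0.340, 0.326 and 0.289 and 0.486, 0.501, 0.544 and 0.554, on 114 to 350 votes per embryo. Usmg5, a small subunit of the ATP synthase, was at 0.858, 0.830, 0.819 and 0.825 and 0.930, 0.971, 0.967 and 0.976 while its expression fell (log2 difference -1.80 ± 0.25 (SE), adjusted p = 0.00363), and Rpl11 at 0.00571, 0.00955, 0.00630 and 0.0116 and 0.107, 0.117, 0.188 and 0.402. Pooled over heterozygous N2 embryos, the BAF of Usmg5 was 0.578, below both litters, and that of Rpl11 0.183, between the litter means. 2310003C23Rik and Dido1, a regulator of chromatin and cell death, start 117 bases apart on opposite strands of chromosome 2 and moved alike, from 0.348, 0.327, 0.314 and 0.336 to 0.520, 0.505, 0.455 and 0.468 and from 0.327, 0.307, 0.292 and 0.372 to 0.558, 0.452, 0.521 and 0.481. The call of Dido1 was lost without embryo 2 of litter 1 and without embryo 5 of litter 2 (adjusted p up to 0.115), and both genes were near 0.5 in B6 × Cast litter 5, at 0.501 ± 0.0274 and 0.519 ± 0.0613 (SD, n = 5). Their BAF pooled over heterozygous N2 embryos was 0.387 and 0.367, between the litter means and nearer to that of litter 1.

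Small nucleolar RNAs and their hosts, which share reads, were among the 8 genes with the smallest p for a lower BAF. Rps21, a ribosomal protein gene on chromosome 2 from 179992082 to 179993150, was at 0.0257, 0.0272, 0.0289 and 0.0281 in litter 1 and 0.0114, 0.00787, 0.00761 and 0.00843 in litter 2 (log2 odds ratio -1.68 ± 0.11 (SE), adjusted p = 2.35e-04), a small shift on 36523 to 118726 votes per embryo. Mir3091 is listed with nearly the same votes and is not a separate measurement. Snhg9, a host gene on chromosome 17 from 24856476 to 24856910, was at 0.456, 0.457, 0.471 and 0.462 and 0.358, 0.337, 0.360 and 0.367 (log2 odds ratio -0.64 ± 0.05 (SE), adjusted p = 6.20e-04), and Snora78 lies inside it. Rpl4 was at 0.891, 0.853, 0.909 and 0.880 and 0.699, 0.716, 0.778 and 0.762 (log2 odds ratio -1.44 ± 0.18 (SE), adjusted p = 0.00793). Ndufa4, a subunit of the respiratory chain, was at 0.474, 0.447, 0.497 and 0.485 and 0.345, 0.222, 0.234 and 0.182 (log2 odds ratio -1.46 ± 0.20 (SE), adjusted p = 0.0107), and Txnrd1, thioredoxin reductase, at 0.656, 0.660, 0.682 and 0.759 and 0.511, 0.482, 0.447 and 0.508 (log2 odds ratio -1.24 ± 0.17 (SE), adjusted p = 0.0107). Pooled over heterozygous N2 embryos, BAF was 0.265 for Rps21, 0.511 for Snhg9 and 0.978 for Rpl4, each above both litters. The pooled values of Ndufa4 and Txnrd1, 0.336 and 0.600, lay between their litter means. The cause of these gaps was not tested, and allele fractions of such genes are uncertain. Nes, whose level fell, also changed in BAF, from 0.515, 0.509, 0.502 and 0.511 to 0.447, 0.451, 0.473 and 0.436 (log2 odds ratio -0.33 ± 0.05 (SE), adjusted p = 0.0236). In B6 × Cast litter 5 the BAF of Nes was 0.517 ± 0.0142 (SD, n = 5), nearer to litter 1, and pooled over heterozygous N2 embryos it was 0.544, above both litters. Top2a, the topoisomerase of dividing cells, went from 0.543, 0.524, 0.537 and 0.517 to 0.482, 0.487, 0.454 and 0.452 and its level was not called. For all called genes, litter 5 of the other cross was nearer to litter 2 for 37 of 57 higher and 25 of 47 lower, against 51.8% of the genes tested. From litter 5 to litter 3 the sign was kept by 25 of 57 and 20 of 47. Of all genes 51.2% had a positive difference there, the background for the higher genes, while for the lower ones it is the remainder. Among called genes with enough heterozygous N2 embryos, the sign of the relation with somite number was kept by 27 of 46 higher and 19 of 37 lower. Of 3247 genes 49.9% had a positive sign, again the background for the higher genes only.

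**Figure D5:**
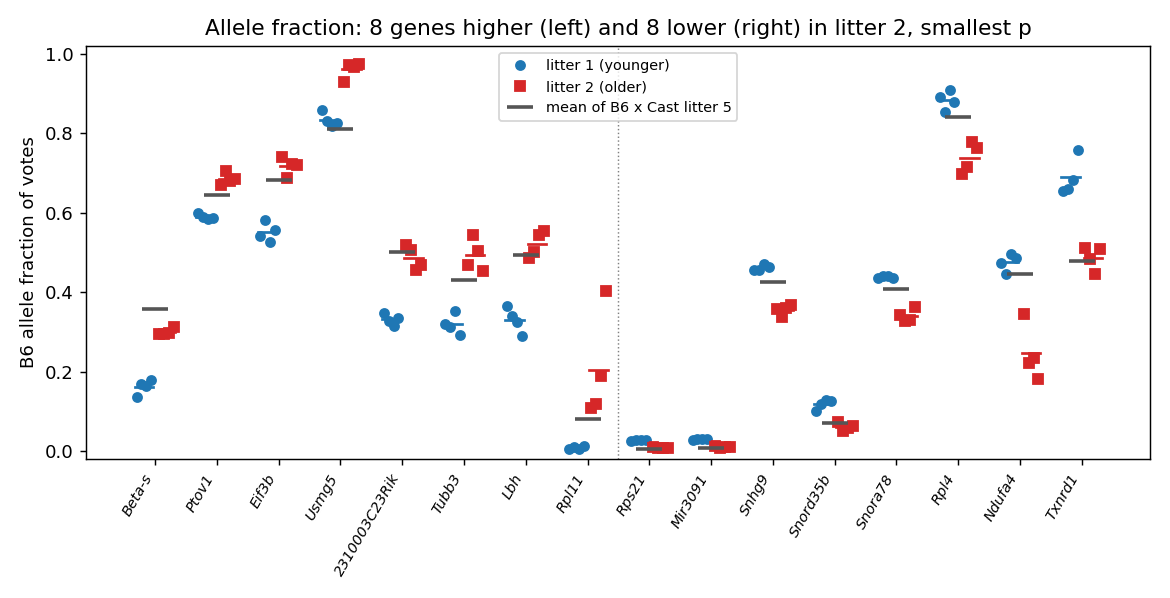
B6 allele fraction of votes (y axis, 0 to 1) in each embryo of litter 1 (circles) and litter 2 (squares) for the 8 genes with the smallest p in each direction, with litter means as thin bars and the mean of B6 × Cast litter 5 as a grey bar. Beta-s moves from 0.136 to 0.180 in litter 1 to 0.294 to 0.312 in litter 2. None of the 16 genes, which were picked by p, has overlapping litters, and over all genes tested 7.62% have none.

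Imprinted genes are read from one parental copy, so in these embryos paternally expressed genes read B6 and maternally expressed ones Cast. None of the 12 paternally and 13 maternally expressed genes tested for BAF was called by edgeR, 4 and 1 had an unadjusted p under 0.05, and Peg10 came closest (adjusted p = 0.138). The largest differences were those of Gab1, at 0.502, 0.545, 0.466 and 0.483 and 0.573, 0.515, 0.603 and 0.579, and Ppp1r9a, at 0.260, 0.404, 0.421 and 0.587 and 0.654, 0.400, 0.541 and 0.552 on 26 to 77 votes, which are imprinted in placenta or only in some tissues and read from both copies here. Sgce stayed near its paternal copy, at 0.932, 0.920, 0.929 and 0.944 and 0.973, 0.954, 0.965 and 1. In total level, 2 of 20 tested paternally expressed genes were higher and 2 lower (10% and 10%), and 2 and 1 of 17 maternally expressed genes (11.8% and 5.88%). None of these shares was above those over all genes tested (14.0% and 10.9%). Plagl1, a growth regulator, was at 44.3, 37.1, 32.99 and 33.6 RPM in litter 1 and 79.8, 81.4, 119 and 117 RPM in litter 2 (log2 difference 1.35 ± 0.20 (SE), adjusted p = 0.00397). Mest, a marker of growing mesoderm, was at 799.9, 1044, 1114 and 1094 RPM and 773, 657, 634 and 559.9 RPM (log2 difference -0.70 ± 0.12 (SE), adjusted p = 0.00655), and Igf2r, the receptor that clears IGF2, at 77.6, 83.3, 96.4 and 100.1 RPM and 57.3, 76.03, 56.9 and 47.4 RPM (log2 difference -0.67 ± 0.13 (SE), adjusted p = 0.00972).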

How the data were processed

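Whole E11.5 embryos were profiled by 3SEQ. The authors trimmed HiSeq reads of F1 embryos to the length of the GAIIx reads. N2 reads lost only their poly(A) stretches, so F1 and N2 reads differed in length. The authors mapped the reads with Bowtie2 to mm9 and to an in silico Cast genome, discarded reads with a close second alignment, and deposited raw read counts per gene with 1 column per embryo. For allele-specific expression the authors deposited B6 and Cast votes per gene, which are estimated counts because a read over several SNPs splits its vote, and they were rounded for the tests. The N2 genotypes used for the heterozygous embryos were deposited by the authors as a score per gene. Of 168 N2 columns, 160 were used and 8 were not. RPM was computed from the counts on genes.

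The litters were compared with edgeR 4.0.16 (R 4.3.3) by quasi-likelihood tests after TMM normalization, on genes whose 8-embryo mean reached 5 RPM, with Benjamini-Hochberg adjusted p under 0.05 as the threshold. BAF was tested as the interaction of allele and litter, with embryo terms, on autosomal genes with at least 20 votes in each embryo, at an adjusted p under 0.1. SE is the log2 difference divided by the square root of F. Globin shares were compared with exact permutation tests (scipy 1.17.1). Alternatives used limma 3.58.1 and DESeq2 1.42.0, and the scripts were tested on simulated data. Positions are of mm9 and were found for 9470 of the 9666 genes, and promoters are from RefSeq on GRCm38.p6.

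The members, lists and tests were chosen with earlier results of these data known. Genes named were the 10 with the smallest p in each direction, up to 4 per list, all globins, the 8 with the smallest p in each direction for BAF, and the imprinted genes with the largest BAF differences. Afp, Alb, Hnf4a, Cryab, Myog, Col2a1, Sox2, Phox2a, T, C1qa, C1qc, Fcer1g, Mcm2, Ccnb1 and Mki67, and for BAF Nes, Top2a and Dido1, were added after their values were seen. A few results are not reported here. No test of a whole list was run. Replicate chi-square values per degree of freedom were 12.0 to 201, so no pair of libraries differed by less than sampling noise. Depth per embryo is given in the report.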

Additional observations from a re-analysis of the deposited data

Results flagged for a closer look

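Of 236 sets of 4 littermates examined, one embryo stood apart from the other 3 by more than Dixon's critical value at the 95% level in 11, a criterion that chance meets in about 1 of 20 sets. Embryo 1 of litter 1 had 49012.5 RPM of Hba-x against 34233 to 35092.5 RPM in its littermates, 13.4% of its reads on globins against 9.96 to 10.2%, and 23.2 RPM of Prph against 33.2 to 34.7 RPM. Embryo 3 of litter 2 had 40.6 RPM of Matr3 against 30.9 to 31.9 RPM and 6.86 RPM of Pitx3 against 8.81 to 9.18 RPM. These are the 2 libraries that deviated together across genes.

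Embryo 4 of litter 1 had 72.4 RPM of Akap2 against 57.2 to 59.8 RPM and 8.03 RPM of Cryaa against 4.47 to 4.82 RPM. Embryo 2 of litter 2 had 19.9 RPM of Cryaa against 12.0 to 12.7 RPM in its littermates, and Beta-s took 3.07% of its beta-globin reads against 4.69 to 4.92%. Embryo 6 of litter 2 had 14.7 RPM of Cryba1 against 9.82 to 9.89 RPM and 22.2 RPM of Mirg against 13.5 to 14.5 RPM. The causes were not tested.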

How the results depend on the processing

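No gene named with a call and no globin share named changed sign under the alternatives run. Genes named without a call, such as Mcm2, are not covered by that statement. Of repeats for single genes 1956 in expression and 286 in BAF stayed on their side of the threshold while 175 and 18 lost the call. The balance of calls did turn. Fewer genes were higher than lower in expression without globins in the totals (1192 and 1508), without embryo 3 of litter 2 (1469 and 1691) and at a minimum of 20 RPM (943 and 1113). The median of all genes went from -0.03 to 0.05 with library sizes alone. Besides the 3 sex-linked genes, list medians turned from 0.01 to -0.06 for red cell, from 0.05 to -0.01 for heat shock and from 0.03 to -0.03 for maternally expressed imprinted genes without globins, the last to -0.04 without 3 libraries, and from -0.09 to 0.04 for ribosomal protein genes without 2. The counts 1357 higher and 1057 lower ranged from 711 to 1469 and from 439 to 1691 with one library left out, and 57 and 47 for BAF from 18 to 68 and from 23 to 62. Library sizes alone gave 595 lower genes, sex as a covariate 865 higher and 637 lower, and the exact Mann-Whitney U test 0 and 0 after adjustment, where the smallest adjusted p was 0.0988 because 4 against 4 embryos cannot go below 0.0286 per gene, and 2071 higher and 724 lower at an unadjusted p under 0.05. For BAF, limma on log2 vote ratios gave 26 and 27, a quasi-binomial model 30 higher, and an adjusted p under 0.05 gave 34 higher. Leaving out the 2 libraries that deviated together gave 1688 lower genes, and for BAF 86 and 88, and leaving out embryo 3 of litter 1 as well gave 1683 lower genes, and for BAF 111 and 113. BAF calls, more often higher with all libraries, were thus more often lower here and in some fits with one library left out. These alternatives and thinning to the lowest depth were chosen after seeing the data. Embryo numbers 2 and 3 occur in both litters, but do not pair them (r of deviations 0.0423 and -0.570). With the replicate block on these 4 embryos edgeR called 0 higher and 0 lower genes in expression (634 and 400 at an unadjusted p under 0.05) and 0 and 0 in BAF (135 and 154), and without the block on the same 4 embryos 0 and 0, and 1 and 0. Globin shares with one embryo left out could not go below p = 0.0571, and their differences ranged from -8.98 to -7.49 percentage points for Hbb-bh1, from 1.34 to 1.81 for Hbb-b2 and from 3.46 to 4.07 for Beta-s. Without Beta-s in the sum, Hbb-y differed by 6.27 points (exact adjusted p = 0.0286). The depth of litter 2 limits low genes, and other causes were not tested.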
